A study of Mus musculus with 6 samples.

Results

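The genes described here encode the proteasome, its regulators and its assembly factors, and were taken by name: every protein-coding gene of the deposited table whose symbol starts with Psm, a letter from a to g and a number. 50 of 22046 protein-coding genes met this rule, in a table of 54532 genes. They comprise 8 core alpha genes (Psma), 7 constitutive core beta genes (Psmb), the 3 immunoproteasome genes Psmb8, Psmb9 and Psmb10, the thymic Psmb11, 6 cap ATPase genes (Psmc), 14 further cap genes (Psmd), 5 activator genes (Psme), the inhibitor Psmf1 and 4 assembly chaperone genes (Psmg). The remaining match, Psmc3ip, encodes a meiotic recombination factor that only carries the name. 48 of the 50 passed the filter on low values (at least 0.5 FPKM in at least 3 libraries). The others were Psma8, a testis form, with 0 to 4 reads per library, and Psmb11, with 0 to 6.

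RNA was measured in whole pancreatic islets of mice aged 7 weeks by poly(A)-selected RNA sequencing. 3 libraries came from mice labelled Ythdc1-betaKO (bKO), by that name a beta cell knockout of YTHDC1, a nuclear reader of the RNA mark m6A, and 3 from Ythdc1flox/flox mice (control), which carry the floxed alleles without the deletion. The Cre driver is not given in the sources used here, and for bKO replicates 2 and 3 the description field names a different Ythdc gene from the Ythdc1 of the genotype label, which was followed. Per the labels each replicate is its own biological sample. Ythdc1 was at 3.82 ± 0.041 FPKM in bKO and 6.13 ± 0.35 FPKM in control libraries (SD, n = 3 each), so the labels and the targeted gene go together in all 6 libraries. Islets also hold other endocrine cells, vessels and immune cells, and in such bulk samples fewer cells of a type and less RNA per cell cannot be told apart. FPKM are fragments per kilobase of the listed gene length, scaled per library by the authors with median-of-ratios size factors and not by total reads, as the whole reads recovered from the values show. 17145960 to 17770058 reads in bKO and 16863329 to 18240339 in control stood behind them, and 21 to 3554 behind each tested proteasome gene in a library.

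The proteasome degrades proteins tagged with ubiquitin. A barrel of stacked alpha and beta rings holds the proteolytic sites, and a cap on its ends binds ubiquitin chains, removes them and unfolds the substrate with a ring of ATPases. Other activators, PA28 and PA200, can take the place of the cap, and in immune cells and under interferon 3 inducible beta subunits replace the constitutive catalytic ones. In beta cells, which make large amounts of proinsulin, the proteasome also clears misfolded protein from the secretory pathway.

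Proteasome mRNA was slightly lower in bKO islets across core, cap and activator genes with the deposited scaling, and higher for most of them when libraries were scaled by their total reads. On the deposited scale 43 of 48 tested genes had a log2 fold change (bKO over control, on log2(FPKM + 1)) below 0, against 52.2% of all 15717 genes tested, and their median was -0.11, against -0.01 for all genes. By limma with Benjamini-Hochberg adjustment over all genes, 20.3% of all genes changed and 11.4% fell, and of the 48 proteasome genes 9 (18.8%) fell. They were the core genes Psma1, Psmb2 and Psmb4, the cap genes Psmc5, Psmd1, Psmd2 and Psmd11, the activator Psme1 and the inhibitor Psmf1. 0 of the 48 rose by limma, where 8.96% of all genes rose, and 0 by voom on recovered reads, where 12.5% of all genes rose. At an unadjusted limma p under 0.05 also 0 were higher, but the share of all genes at that threshold was not computed. Summed over all 50 genes, the levels were 866, 902 and 864 FPKM in bKO replicates 1 to 3, against 973, 978 and 939 FPKM in control replicates 1 to 3. All bKO sums lay below all control sums.

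The direction of most of these small changes rests on the scaling, as 29 of 48 genes changed sign with library totals. Of the 9 genes that fell, Psmc5 alone turned, to 0.0054, and the others stayed below 0 without a call. The insulin genes took 15.2% to 16.2% of reads in bKO and 21.6% to 23.3% in control. By limma 5 of 7 beta cell markers fell, where 11.4% of all genes fell. Pdx1 went the other way, at 91.5 ± 3.7 FPKM in bKO and 87.0 ± 3.9 FPKM in control (SD, n = 3 each), and was not called. Summed, these markers, mostly Ins1, Ins2 and Iapp, were at 130557 to 139637 FPKM in bKO and 200691 to 222377 FPKM in control. The part of this shift in the proteasome values was not tested. When each library was divided by its total, which holds these reads, 14 of 48 genes were below 0, their median was 0.05 and that of all genes 0.13. 0 of 48 then fell by limma, where 4.69% of all genes fell. 4 rose, Psmb10, Psmc2, Psmc3 and Psmd7, where 23.4% of all genes rose. At an unadjusted limma p under 0.05, 9 of 48 were higher and 0 lower, and the share of all genes was not computed. Voom on recovered reads, run on the deposited scaling, called 13 of 48 lower, where 15.2% of all genes fell. With totals that leave out hormone genes, 36 of 48 were below 0 and Psma1, Psmd2 and Psme1 fell, where 1279 of all 15717 genes fell. The median of the proteasome genes minus that of all genes was -0.10 with the deposited scaling, -0.08 with totals, -0.09 with totals without hormone genes and -0.04 with quantile normalization. All directions given from here on are those of the deposited scaling unless another is named.

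**Figure D1:**
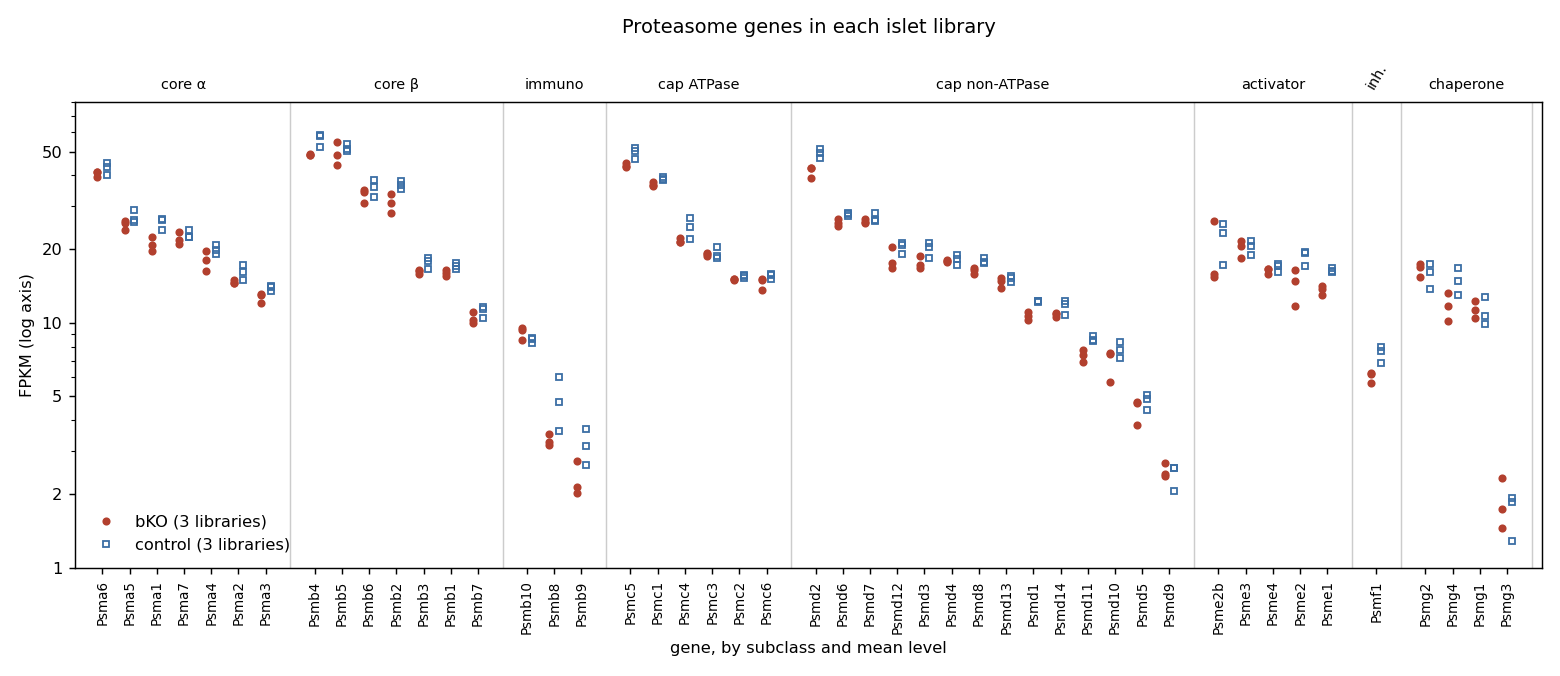
FPKM (log axis) of the 47 tested proteasome genes in the 3 bKO libraries (filled circles) and the 3 control libraries (open squares), by subclass and mean level, Psmc3ip left out. The groups lie close together for nearly all genes, with the bKO points lower for Psma1, Psmb4, Psmd2 and Psme1, where dividing by library totals ends the calls.

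The levels of the subunits differed far more than the groups did. Per listed gene length, Psmb4, a noncatalytic beta subunit, had the highest mean over all 6 libraries at 52.4 FPKM and Psmg3, an assembly chaperone, the lowest of the tested proteasome genes proper at 1.76 FPKM. Within a group the coefficient of variation had a median of 5.48% in bKO and 5.49% in control. 18 of 48 genes (37.5%) had all bKO libraries below all control libraries, where 21.6% of all genes did, and 0 had all of them above, where 18.5% did.

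Among core genes, those of the alpha ring gate the barrel and those of the beta ring form its chamber. All 14 tested core genes were below 0 (median -0.11), 3 of them called, and with library totals 11 of the 14 turned to positive values. Psma1 (ENSMUSG00000030751, chromosome 7, 114264606 to 114276118, GRCm38), an alpha ring subunit, was at 19.7, 22.4 and 20.8 FPKM in bKO, against 24.0, 26.3 and 26.6 FPKM in control. Its mean dropped by 18.3%, a log2 fold change of -0.28 with SE 0.062 and limma adjusted p = 0.021. No bKO library reached the lowest control library. Psmb4 (ENSMUSG00000005779, chromosome 3, 94884093 to 94886961) was at 48.3, 48.9 and 48.7 FPKM in bKO, against 58.4, 57.9 and 52.3 FPKM in control, and fell by 0.20 (SE 0.049, limma adjusted p = 0.029). The bKO libraries lay close together, while control replicate 3 was the lowest of its group. Psmb2 (ENSMUSG00000028837, chromosome 4, 126677630 to 126709714), another beta subunit without a catalytic site, was at 30.9, 33.5 and 28.0 FPKM in bKO, against 37.9, 35.1 and 36.4 FPKM in control, and fell by 0.24 (SE 0.068, limma adjusted p = 0.0499). Its bKO libraries spread more than its control libraries, and its call is the weakest of the 9.

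The constitutive catalytic subunits were not called, and their groups overlapped. Psmb5, which carries the chymotrypsin-like site, was at 48.5, 54.7 and 44.2 FPKM in bKO, against 51.4, 53.6 and 50.4 FPKM in control. The highest and the lowest of these 6 values were both bKO libraries. Psmb6, the caspase-like subunit, was at 34.9, 34.4 and 30.9 FPKM in bKO, against 35.8, 38.4 and 32.6 FPKM in control. Psmb7, the trypsin-like subunit, was at 11.1, 9.98 and 10.3 FPKM in bKO, against 11.7, 10.47 and 11.3 FPKM in control. Their log2 fold changes were -0.08, -0.09 and -0.09, with limma adjusted p = 0.50, 0.44 and 0.35, and all 3 were above 0 with library totals. The other core genes were between -0.15 (Psma4) and -0.06 (Psma7). Among them Psma3, Psmb1 and Psmb3 had bKO libraries all below the control libraries without passing the test.

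The cap has a base with 6 ATPases and large scaffold subunits and a lid that holds the deubiquitinase Psmd14. 19 of 20 cap genes were below 0 (median -0.11), 4 of them called, and summed cap levels were 366, 378 and 371 FPKM in bKO, against 410, 413 and 395 FPKM in control. Psmc5 (ENSMUSG00000020708, chromosome 11, 106256154 to 106263120), an ATPase of the base, was at 44.9, 43.6 and 43.5 FPKM in bKO, against 50.4, 51.7 and 46.6 FPKM in control. It fell by 0.17 (SE 0.047, limma adjusted p = 0.048), and with library totals its value was 0.0054. The other ATPase genes, Psmc1 to Psmc4 and Psmc6, were between -0.17 and -0.01 and not called. Psmc2 and Psmc3 had the smallest differences of the ring, at 15.0 ± 0.125 and 19.0 ± 0.20 FPKM in bKO and 15.5 ± 0.20 and 19.2 ± 1.1 FPKM in control (SD, n = 3 each). Both were among the 4 genes that rose with library totals.

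Psmd2 (ENSMUSG00000006998, chromosome 16, 20651652 to 20663414) encodes the scaffold on which ubiquitin shuttle proteins dock, and had the most reads of all proteasome genes. It was at 39.2, 42.8 and 43.0 FPKM in bKO, against 49.6, 51.1 and 47.1 FPKM in control, and fell by 0.24 (SE 0.052, limma adjusted p = 0.020). Psmd1 (ENSMUSG00000026229, chromosome 1, 86064387 to 86139151), the other large scaffold, was at 11.03, 10.2 and 10.7 FPKM in bKO, against 12.1, 12.3 and 12.3 FPKM in control, and fell by 0.18 (SE 0.044, limma adjusted p = 0.029). Both scaffold genes had groups that did not overlap. Psmd11 (ENSMUSG00000017428, chromosome 11, 80428615 to 80473248), a lid subunit, was at 6.89, 7.76 and 7.40 FPKM in bKO, against 8.83, 8.39 and 8.47 FPKM in control, and fell by 0.20 (SE 0.056, limma adjusted p = 0.049). In contrast the ubiquitin receptor Psmd4 was at 17.9 ± 0.25 FPKM in bKO and 18.1 ± 0.79 FPKM in control, and Psmd14 at 10.8 ± 0.24 FPKM in bKO and 11.7 ± 0.77 FPKM in control (SD, n = 3 each), neither called. Psmd6 and Psmd8, also lid subunits, had bKO libraries all below control without a call (limma adjusted p = 0.093 and 0.074). Psmd5, Psmd9 and Psmd10, which assist in cap assembly and are not part of the finished cap, were between -0.15 and 0.04 and not called. The ratio of summed cap to summed core FPKM was 1.02, 1.01 and 1.08 in bKO and 1.03, 1.03 and 1.03 in control, so the groups overlapped. Means of the sums in bKO stood at 0.910 of control for the core and 0.915 for the cap.

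**Figure D2:**
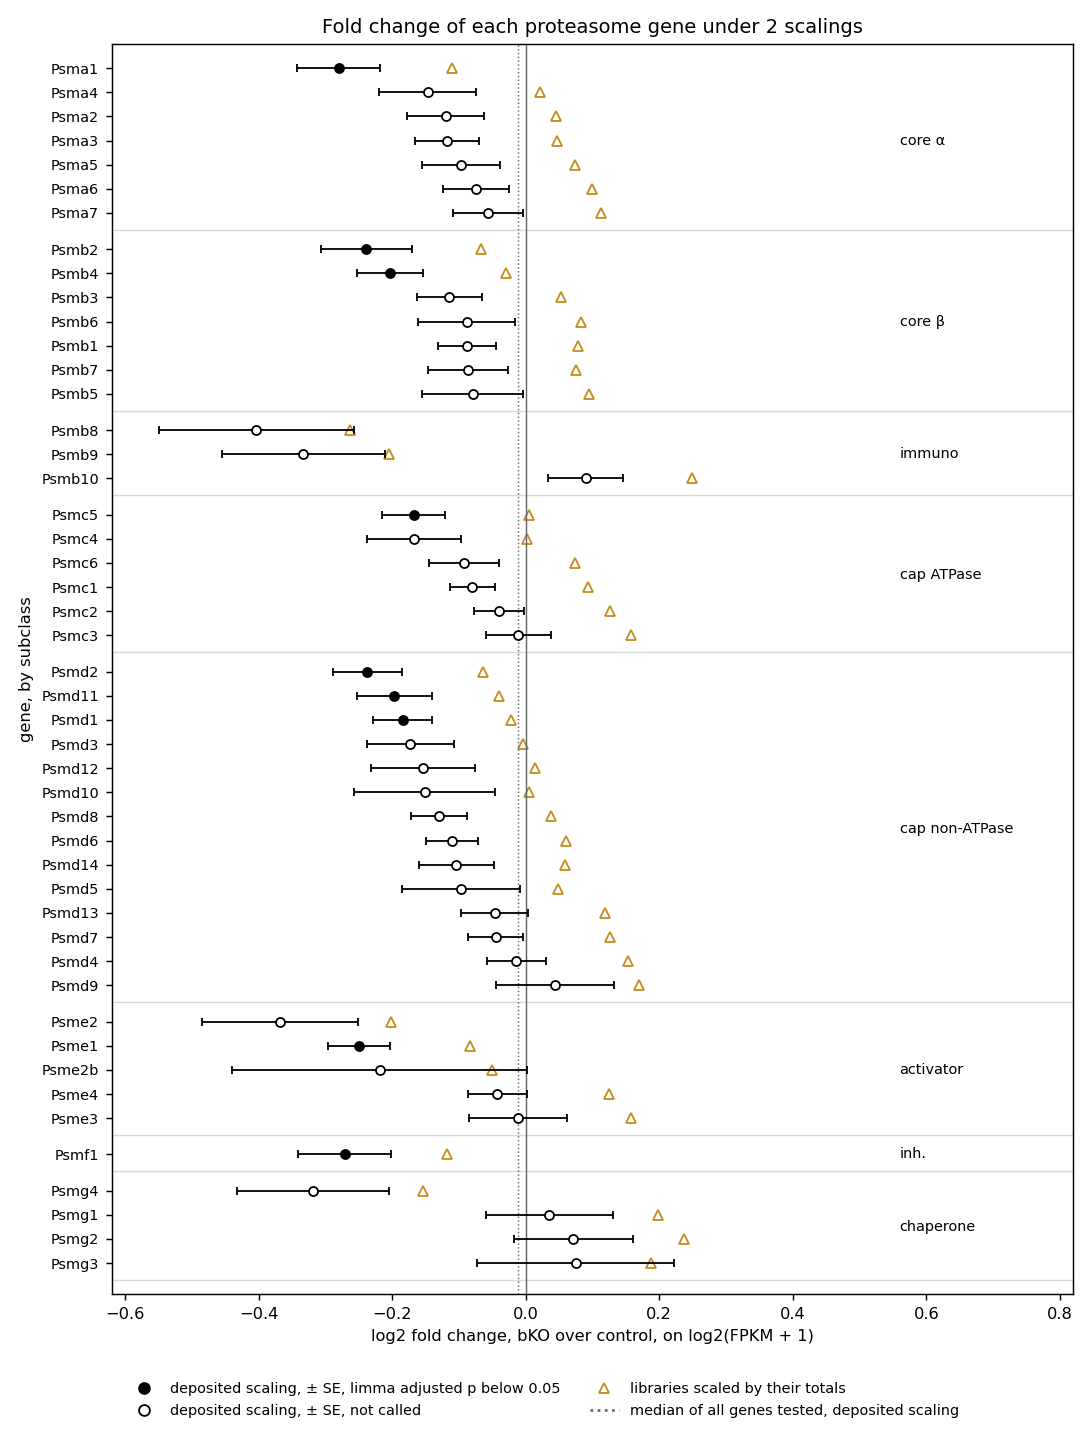
Log2 fold change (bKO over control, on log2(FPKM + 1)) of 47 tested proteasome genes by subclass, as circles with ± 1 SE for the deposited scaling (filled where called) and as triangles for libraries scaled by their totals. Nearly all circles lie left of 0 and most triangles right of it. 14 genes are left of 0 under both, among them Psmb8, Psmb9, Psme2 and all called genes except Psmc5.

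The activators open the barrel without ubiquitin. PA28 alpha and beta, encoded by Psme1 and Psme2, form a ring that interferon induces and that aids the making of peptides for class I molecules, while Psme3 encodes the nuclear PA28 gamma and Psme4 encodes PA200. Psme1 (ENSMUSG00000022216, chromosome 14, 55578123 to 55581529) was at 12.9, 14.1 and 13.8 FPKM in bKO, against 16.8, 16.1 and 16.2 FPKM in control. Its mean dropped by 16.8% (-0.25, SE 0.047, limma adjusted p = 0.012), with the smallest adjusted p of the 48 genes. It was the only one of the 9 that remained called without each library in turn (limma adjusted p = 0.028 to 0.048), and it was not called with library totals (-0.08, limma adjusted p = 0.18). Psme3 was at 20.2 ± 1.7 FPKM in bKO and 20.4 ± 1.4 FPKM in control, and Psme4 at 16.4 ± 0.43 FPKM in bKO and 16.9 ± 0.60 FPKM in control (SD, n = 3 each). Neither was called (limma adjusted p = 0.93 and 0.54), and both turned to positive values with library totals.

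Psme2 (ENSMUSG00000079197, chromosome 14, 55587441 to 55591113) lies 5911 bases from Psme1. It was at 16.4, 11.7 and 14.8 FPKM in bKO, against 19.3, 19.4 and 17.1 FPKM in control (-0.37, SE 0.12, limma adjusted p = 0.068). Psme2b (ENSMUSG00000078153, chromosome 11, 48945354 to 48946190), a single-exon copy of it, was at 15.4, 26.1 and 15.8 FPKM in bKO, against 23.4, 17.3 and 25.4 FPKM in control (-0.22, SE 0.22, limma adjusted p = 0.53). In each genotype the library with the most Psme2b reads or the fewest stood opposite for Psme2, with bKO replicate 2 lowest for Psme2 and highest for Psme2b and control replicate 2 highest for Psme2 and lowest for Psme2b.

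The copies are nearly the same in sequence, so reads of either gene may be counted for the other, and single values of Psme2 and Psme2b are uncertain. Their GENCODE vM21 transcripts are 99.4% identical over 794 aligned bases, with 5 mismatches, all in the coding part. The 60 coding bases from position 484 to 543, counted from the first base of each start codon, hold 3 of the 5, shown in capitals:
Psme2b: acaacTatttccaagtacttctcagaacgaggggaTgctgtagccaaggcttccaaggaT
Psme2: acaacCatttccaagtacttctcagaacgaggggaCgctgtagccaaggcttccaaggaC
Outside these 3 letters the stretches are identical. Added together after this was seen, both genes had 41.8, 42.5 and 39.4 RPM (reads scaled as the deposited FPKM are, with no division by length) in bKO replicates 1 to 3, against 53.6, 48.7 and 51.5 RPM in control replicates 1 to 3. The sum had an SD of 1.59 RPM in bKO, below the 4.21 of Psme2 and 5.08 of Psme2b, and of 2.43 RPM in control, where Psme2 had 2.30 and Psme2b 3.56. The sums of the groups did not overlap (two-sided exact permutation p = 0.1, and 3 against 3 libraries cannot give less). With their reads merged into 1 gene, the pair fell, at -0.30 (SE 0.0499, limma adjusted p = 0.0077). The merged call held without each library in turn (limma adjusted p = 0.013 to 0.029) and ended with library totals (-0.13, limma adjusted p = 0.080).

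**Figure D3:**
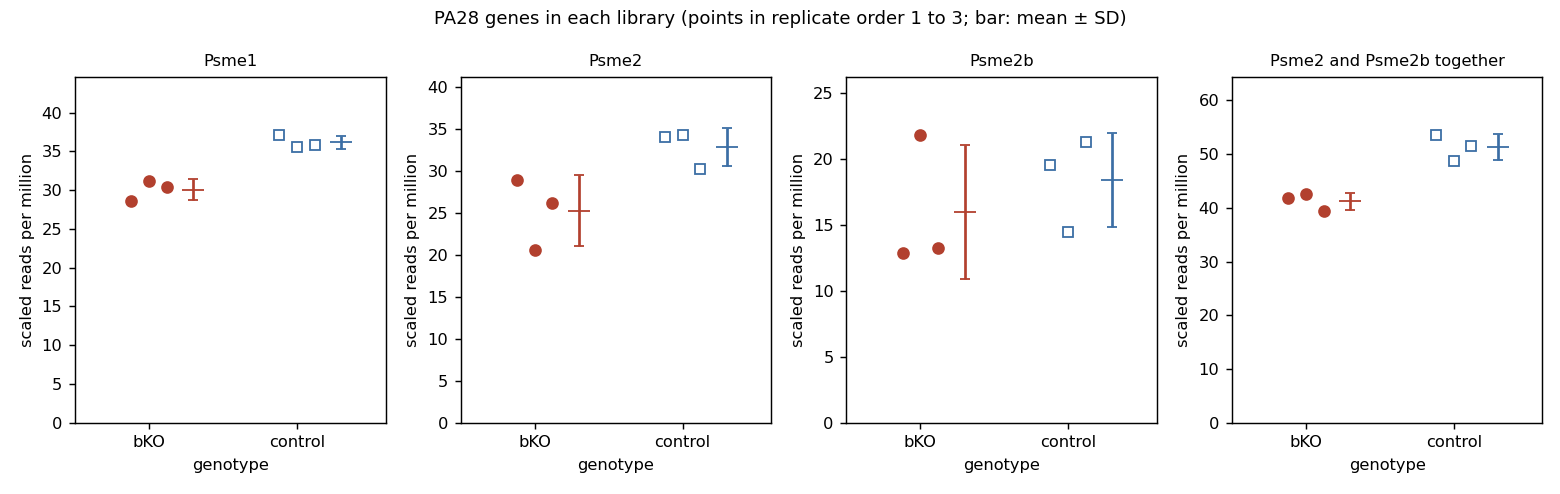
Reads of Psme1, Psme2, Psme2b and of Psme2 and Psme2b together, in RPM on the deposited scaling, in bKO (filled circles) and control (open squares) replicates 1 to 3 from left to right, with mean ± SD. Psme2 and Psme2b move in opposite ways between replicates, while their sum is 39.4 to 42.5 in bKO and 48.7 to 53.6 in control, a difference not called with library totals.

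The promoter of Psme1, the activator gene with the firmest call, is shown with a match to an interferon-stimulated response element core (GAAA, any 2 bases, GAAA, both strands searched) in capitals. It runs from 250 bases before to 50 bases after the RefSeq start (GRCm38.p6, chr14:55578244-55578543, plus strand), and the match, on the minus strand, covers bases 9 to 18 after the first transcribed base.
Psme1: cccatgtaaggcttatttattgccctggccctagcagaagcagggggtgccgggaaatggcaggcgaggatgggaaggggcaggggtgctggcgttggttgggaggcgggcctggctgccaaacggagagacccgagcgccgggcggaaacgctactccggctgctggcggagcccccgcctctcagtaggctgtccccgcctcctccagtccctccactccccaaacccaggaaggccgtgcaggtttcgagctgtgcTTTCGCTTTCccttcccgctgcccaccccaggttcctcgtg
Such a match stood in the promoters of 5 of 42 proteasome genes for which RefSeq gave one. It was in 11.1% of their 45 promoters, against 3.44% of all 32851 promoters. The other genes with a match were Psmb3, Psmd4, Psmd9 and Psmg4, none of them called.

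Psmf1 (ENSMUSG00000032869, chromosome 2, 151715812 to 151744186) encodes PI31, known as an inhibitor of the barrel in vitro. It was at 6.27, 6.16 and 5.67 FPKM in bKO, against 7.67, 7.97 and 6.83 FPKM in control, and its mean dropped by 19.5% (-0.27, SE 0.069, limma adjusted p = 0.035). All bKO libraries were below all control libraries. The assembly chaperones Psmg1 to Psmg4 guide the alpha ring together, and 3 of 4 were above 0. Psmg1, Psmg2 and Psmg3 were between 0.04 and 0.07, with limma adjusted p from 0.62 to 0.83. Psmg4 was at 11.7, 10.1 and 13.3 FPKM in bKO, against 16.7, 14.8 and 13.0 FPKM in control (-0.32, SE 0.11, limma adjusted p = 0.095), on 102 to 149 reads per library, and its groups overlapped. Of the 4 chaperone genes 0 were called by limma or by voom. 1 was below 0 at an unadjusted limma p under 0.05, with no share of all genes computed.

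The 3 immunoproteasome genes differed in direction, and 0 of 3 were called by limma. With voom 2 fell, where 15.2% of all genes fell. At an unadjusted limma p under 0.05 also 2 were below 0, a threshold at which the share of all genes was not computed. Psmb8 (ENSMUSG00000024338, chromosome 17, 34197721 to 34201454), which replaces Psmb5, was at 3.18, 3.53 and 3.26 FPKM in bKO, against 4.77, 6.02 and 3.61 FPKM in control. Its log2 fold change was -0.40 (SE 0.15, limma adjusted p = 0.098), and control libraries spread far more than bKO libraries. Without control replicate 3, its lowest control, it was -0.56 (limma adjusted p = 0.019), and without control replicate 2 it was -0.25 (limma adjusted p = 0.185). Psmb9 (ENSMUSG00000096727, chromosome 17, 34181988 to 34187764), which replaces Psmb6 and lies 9956 bases from Psmb8, was at 2.13, 2.71 and 2.03 FPKM in bKO, against 3.68, 3.14 and 2.63 FPKM in control (-0.33, SE 0.12, limma adjusted p = 0.10). The highest bKO library passed the lowest control library. Both genes stayed below 0 with library totals, at -0.26 and -0.20, and fell with voom, at -0.51 and -0.46 (limma adjusted p = 0.015 and 0.024). Psmb10 (ENSMUSG00000031897, chromosome 8, 105935735 to 105938444), which replaces Psmb7, was at 9.38, 9.51 and 8.47 FPKM in bKO, against 8.63, 8.58 and 8.29 FPKM in control (0.09, SE 0.056, limma adjusted p = 0.31). With library totals it was 0.25 (limma adjusted p = 0.017).

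Ratios within a library do not depend on the scaling. The ratio of Psmb8 to Psmb5 was 0.0655, 0.0645 and 0.0739 in bKO, against 0.0927, 0.112 and 0.0716 in control (two-sided exact permutation p = 0.2). That of Psmb9 to Psmb6 was 0.0611, 0.0790 and 0.0656 in bKO, against 0.103, 0.0818 and 0.0808 in control, and that of Psmb10 to Psmb7 was 0.846, 0.953 and 0.824 in bKO, against 0.741, 0.819 and 0.730 in control. The groups did not overlap for the last pair of ratios, lower in bKO for Psmb9 and higher for Psmb10. Both had a two-sided exact permutation p of 0.1, the least this design permits, and the adjusted value over the 3 ratios was 0.15. As the mean of 3 libraries, Psmb10 stood at 0.874 of Psmb7 in bKO and 0.764 in control, while Psmb8 and Psmb9 were under 0.12 of their partners in every library.

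**Figure D4:**
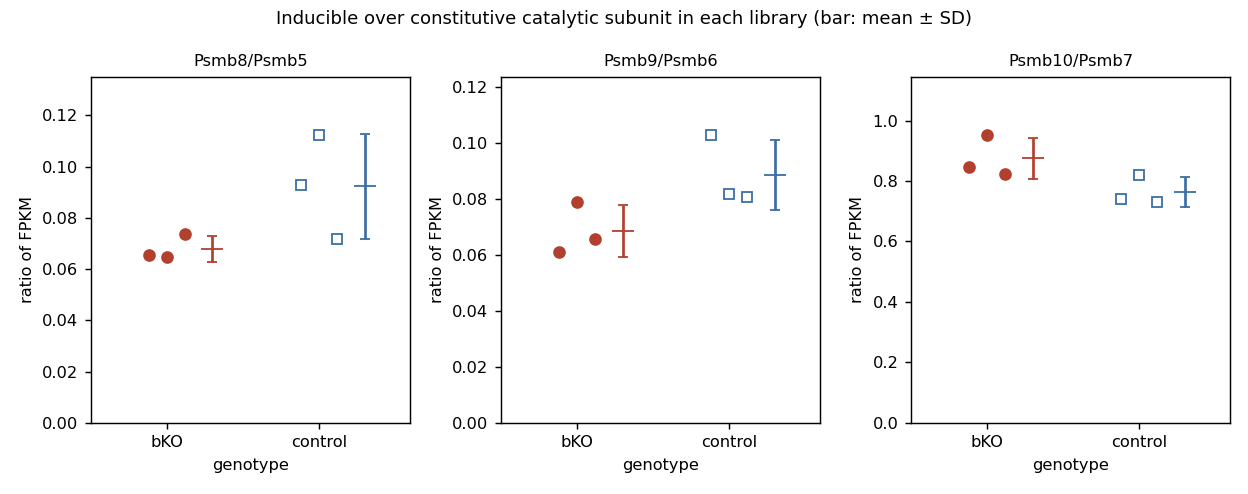
Ratio of FPKM of each inducible catalytic subunit to the constitutive one it replaces, in the 3 bKO (filled circles) and 3 control (open squares) libraries, with mean ± SD. The ratio of Psmb8 to Psmb5 overlaps between groups, that of Psmb9 to Psmb6 is lower in all bKO libraries and that of Psmb10 to Psmb7 higher in all bKO libraries.

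Psmb8 and Psmb9 lie in the class II region of the major histocompatibility complex beside the peptide transporter genes and are abundant in immune cells. Most markers of macrophages moved with them: 7 of 11 tested markers fell by limma, where 11.4% of all genes fell, and 10 were below 0. Cd68 went the other way, at 2.06 ± 0.41 FPKM in bKO and 1.81 ± 0.44 FPKM in control (SD, n = 3 each), and was not called. So did Mrc1, which did not pass the filter, at a mean of 0.196 FPKM in bKO and 0.0915 FPKM in control. The summed level over 13 genes, none at 0 in all libraries, was 142 to 179 FPKM in bKO and 250 to 277 FPKM in control. Cd74 and C1qa had the highest levels in this sum. The B-cell gene Cd79a was at 1.57, 0.719 and 1.52 FPKM in bKO, against 6.69, 6.81 and 4.02 FPKM in control, and fell by 1.59 on the log2 scale (limma adjusted p = 0.0044), while Cd3g was at 0 in all libraries and the other 6 B- and T-cell markers did not pass the filter. Of these the B-cell genes did not go with Cd79a: Cd79b was at 0.0364, 0 and 0.151 FPKM in bKO, against 0, 0.0811 and 0.0863 FPKM in control, and Ms4a1 was at 0.0262 FPKM or less in bKO and listed at 0 in control. Markers of some other cell types went the opposite way. Of 4 endothelial markers Cdh5 and Eng rose by limma, where 8.96% of all genes rose, and 0 were below 0. Ppy, the PP cell marker, and Irx2, 1 of 3 alpha cell markers, also rose. Of the tested delta, acinar and duct markers 0 were called. The part of macrophages or of any other cell type in the Psmb8 and Psmb9 values was not tested. Among 10 tested genes of class I peptide loading and its regulators, Tapbp, the tapasin gene, and Irf1, an interferon-induced transcription factor, fell by 0.34 and 0.29 (limma adjusted p = 0.0049 and 0.035), where 11.4% of all genes fell. Irf1 was called in 6 of 17 settings. Its call was lost without any 1 control library and without bKO replicate 2 or 3 (limma adjusted p = 0.064 to 0.096), with each other scaling (limma adjusted p = 0.053 to 0.26), with no filter (limma adjusted p = 0.0696) and with the replicate block (limma adjusted p = 0.055). Tap1 was at 3.53 ± 0.29 FPKM in bKO and 4.08 ± 0.19 FPKM in control, and B2m at 130 ± 9.9 FPKM in bKO and 123 ± 7.4 FPKM in control (SD, n = 3 each), neither called. Interferon gamma (Ifng) had no reads in control and 0.0426 FPKM or less in bKO.

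Promoters of Psmb8 and of the constitutive genes Psmb5 and Psmb6 are shown, each because it holds a match to the motif marked in it. Those of Psmb9 and Psmb10 held 0 gamma-activated sites and are not printed. The motif marked in Psmb8 differs from that marked in Psmb5 and Psmb6, so the marks do not compare inducible with constitutive genes. Capitals mark a gamma-activated site (TTCNNNGAA) in Psmb8, at bases 97 to 89 before the start (GRCm38.p6, chr17:34197945-34198244, plus strand).
Psmb8: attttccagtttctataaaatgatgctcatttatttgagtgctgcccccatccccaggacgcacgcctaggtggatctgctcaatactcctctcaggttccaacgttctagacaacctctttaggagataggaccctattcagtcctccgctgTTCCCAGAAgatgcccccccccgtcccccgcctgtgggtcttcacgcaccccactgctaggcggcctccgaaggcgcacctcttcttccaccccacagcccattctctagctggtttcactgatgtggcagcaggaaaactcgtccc
In Psmb5 (chr14:54617946-54618245, minus strand) and Psmb6 (chr11:70525107-70525406, plus strand) they mark the antioxidant response element core TGACNNNGC, the kind of site that the NRF1 and NRF2 factors bind, at bases 47 to 39 and 9 to 1 before the start.
Psmb5: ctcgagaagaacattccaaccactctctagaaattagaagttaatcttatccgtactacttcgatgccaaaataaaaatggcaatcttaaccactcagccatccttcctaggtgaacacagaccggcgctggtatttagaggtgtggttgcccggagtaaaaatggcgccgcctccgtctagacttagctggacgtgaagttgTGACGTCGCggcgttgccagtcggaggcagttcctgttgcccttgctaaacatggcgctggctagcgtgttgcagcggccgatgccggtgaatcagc
Psmb6: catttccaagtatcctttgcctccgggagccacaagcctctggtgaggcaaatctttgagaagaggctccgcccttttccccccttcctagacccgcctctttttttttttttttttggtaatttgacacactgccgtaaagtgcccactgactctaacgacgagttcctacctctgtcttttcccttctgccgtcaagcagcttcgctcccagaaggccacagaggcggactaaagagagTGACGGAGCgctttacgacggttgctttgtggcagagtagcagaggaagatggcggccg
The antioxidant core was found, on either strand, in the promoters of 6 of 42 proteasome genes (Psmb5, Psmb6, Psmc6, Psmd9, Psmd12 and Psme4), and in 13.3% of their 45 promoters, against 12.4% of all promoters. 8 of the 9 genes that fell had a promoter in the table, and 0 of the 8 held it. The gamma-activated site was in 3 genes (Psmb8, Psmd2 and Psmg1), in 6.67% of the 45 promoters against 8.30% of all. A GC box (GGGCGG, either strand) was in 53.3% of the 45 promoters, against 35.7% of all, and in those of 6 of the 8 genes that fell. A CCAAT box was in 33.3%, against 37.4% of all. No match to another of these motifs overlaps the capitals printed above.

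Genes that act with the proteasome without a Psm name were taken by their known roles. Of 11 tested factors of assembly, docking and ubiquitin removal, 10 were below 0 and 2 fell, where 52.2% of all genes were below 0 and 11.4% fell. Sem1, the small lid subunit also called DSS1, was at 9.01, 9.88 and 9.50 FPKM in bKO, against 12.4, 12.1 and 12.2 FPKM in control. Its log2 fold change was -0.34 (SE 0.048, limma adjusted p = 0.0043), and it fell in all 17 settings tried, the main one and library totals (-0.18, limma adjusted p = 0.0245) included. Txnl1, a thioredoxin-like protein bound to the cap, fell by 0.24 (limma adjusted p = 0.015), a call lost with library totals (-0.06, limma adjusted p = 0.35), with quantile normalization and with scaling on the proteasome genes. Adrm1, the ubiquitin receptor RPN13, was at 12.8 ± 0.54 FPKM in bKO and 13.98 ± 0.84 FPKM in control, and Pomp, the core maturation factor, at 9.34 ± 0.28 FPKM in bKO and 10.1 ± 0.46 FPKM in control (SD, n = 3 each), neither called.

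Of 6 ubiquitin and E1 enzyme genes 1 fell, a share near the 11.4% of all genes that fell. The polyubiquitin gene Ubb was at 419, 417 and 422 FPKM in bKO, against 507, 511 and 517 FPKM in control, with groups far apart for their spread (-0.29, SE 0.035, limma adjusted p = 0.0025). Its call was lost with library totals (-0.11, limma adjusted p = 0.062) and with quantile normalization (-0.15, limma adjusted p = 0.18).

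Among 8 tested regulators of proteasome gene transcription 3 rose, where 8.96% of all genes rose, and 23.4% with library totals. Nfe2l1, which encodes NRF1, the factor that raises proteasome genes when the proteasome is impaired, was at 70.4, 69.0 and 74.3 FPKM in bKO, against 62.5, 61.9 and 57.98 FPKM in control. It rose by 0.23 (SE 0.046, limma adjusted p = 0.016), also with library totals, and was called in 14 of 17 settings. Its call was lost without bKO replicate 1 or 3 (limma adjusted p = 0.052 and 0.050) and with the replicate block (limma adjusted p = 0.063). Mafk and Maff, small MAF proteins that pair with NRF factors, were at 10.9 ± 0.40 and 8.51 ± 0.83 FPKM in bKO and 8.77 ± 0.14 and 6.01 ± 1.0 FPKM in control (SD, n = 3 each). Mafg, another small MAF gene with higher levels, was at 23.7 ± 1.8 FPKM in bKO and 23.9 ± 1.5 FPKM in control (limma adjusted p = 0.91). Mafk rose by 0.28 in the main comparison and rose in all 17 settings. Maff rose by 0.45 (limma adjusted p = 0.039), a call that ended on leaving out control replicate 2, control replicate 3 or any 1 bKO library (limma adjusted p = 0.061 to 0.12), and with no filter (limma adjusted p = 0.088). Nfe2l2, encoding NRF2, was at 8.65 ± 0.11 FPKM in bKO and 8.86 ± 0.66 FPKM in control (limma adjusted p = 0.76). Whether these levels bear on those of the proteasome genes was not tested.

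Leaving out 1 library ended most of the 9 calls, with fold changes of the same sign throughout. Without control replicate 2 or bKO replicate 1, Psme1 alone of the 9 was called. Psma1 and Psme1 were called without control replicate 1, and Psmd2 and Psme1 without bKO replicate 3. Without bKO replicate 2 the called ones were Psma1, Psmb2, Psmd2 and Psme1, and without control replicate 3 they were Psmb4, Psmc5, Psmd2, Psme1 and Psmf1. Among the 50 genes, 15 have exons that overlap another annotated gene, and the sources used here do not say whether strand was used in counting. These include Psme1 (with Emc9 on the other strand), Psmd1 (with Htr2b and Gm21972), Psmb9 (with Tap1) and Psmb8 (with Gm20496), whose values may therefore hold reads of their neighbours. Reads at proteasome pseudogene rows were few, at 8 in all libraries for Psmb7-ps2 and 0 at the other 5.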

How the data were processed

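Per the labels, HISAT2 2.0.5 aligned the paired reads to GRCm38 and featureCounts 1.5.0-p3 did the counting. Annotation release, strand setting and handling of multi-mapping reads are not given in the sources used here. Values in the deposited table are the authors' FPKM. Multiplied by gene length, 100% of them gave whole reads (tolerance 0.01), scaled by median-of-ratios size factors and not by library totals. Totals are given above, and depth is similar across the 6 libraries. Gene lengths are those listed in the deposited table, another unit, in bases. 0 columns of other samples were present.

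Log2(FPKM + 1) was modelled in limma 3.58.1 under R 4.3.3, bKO against control with no covariate and a mean-variance trend, for 15717 genes with at least 0.5 FPKM in at least 3 libraries. p-values were adjusted by Benjamini-Hochberg at 0.05. Fold changes on this scale understate low genes. Ratios were compared by exact permutation. Other steps ran in Python 3.11.15 (pandas 2.3.3, scipy 1.17.1). The limma step was tested on simulated data. Values are named for all called proteasome genes, the catalytic, activator and inhibitor genes and those with the smallest p. The members and lists were chosen with earlier results of these data known. Promoters are from RefSeq (GRCm38.p6), matched by symbol for 42 genes, and all 50 gene IDs were found in GENCODE vM21, 48 with the same start and end. Alternatives were 3 other scalings, other filters and pseudocounts, voom on recovered reads, the replicate block and leaving out each library. Scaling on the proteasome genes and merging Psme2 with Psme2b were chosen after seeing the data. Genes of substrate delivery are not reported here one by one.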

Additional observations from a re-analysis of the deposited data

How the results depend on the processing

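The count of proteasome genes that fell was 9 in the main comparison, 0 with library totals, 3 with totals without hormone genes and 2 with quantile normalization. It was 4 with no filter, 2 with the replicate block and 1 to 7 without a library. Psmb8 and Psmc4, not among the 9, were called without control replicate 3, and Psme2 without bKO replicate 1. The count stayed 8 or 9 with the other filter and pseudocounts, and voom called 13. The rises were 4 with totals. Scaled on the proteasome genes themselves, chosen after seeing the data, 0 fell, 1 rose (Psmb10), 22 were below 0 and their median was 0.0089. Their median was 0.051 with totals (14 below 0), -0.053 with totals without hormone genes and -0.057 with quantile normalization. Over all genes, 3684 rose and 737 fell with totals, a share of 83.3% higher against 44.1%, and 58.8% higher with totals without hormone genes. With no filter 1317 of 29515 genes fell. Of the 15717 genes of the main filter, 1784 fell with the deposited scaling, 1279 with totals without hormone genes and 1419 with quantile normalization. 925 rose and 1152 fell with the replicate block, and 852 to 1179 rose and 1037 to 1604 fell without a library. Of the 45 other genes listed, 3 rose and 6 fell. 11 rose and 3 fell with totals, 6 rose with totals without hormone genes, 5 rose and 3 fell with quantile normalization, 12 fell with voom, and 1 to 3 rose and 5 to 7 fell without a library. The cause of these differences between settings was not tested.

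Replicate numbers did not pair the libraries: same-numbered libraries correlated at -0.052, -0.014 and -0.073 in their deviations from the group means. With the block Psma1 and Psmf1 alone of the 9 were called.

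Of the 48 tested genes 29 changed sign with library totals, 7 with totals without hormone genes, 13 with quantile normalization, 21 when scaled on the proteasome genes and 0 to 4 without a library. All 48 were refitted in each setting, and the values that follow cover only the named genes among those that changed sign. With library totals, log2 fold changes were 0.0054 for Psmc5, 0.094 for Psmb5, 0.083 for Psmb6, 0.075 for Psmb7, 0.16 for Psme3, 0.12 for Psme4, 0.037 for Psmd8, 0.0602 for Psmd6, 0.046 for Psma3, 0.0024 for Psmc4, 0.053 for Psmb3, 0.093 for Psmc1, 0.046 for Psma2 and 0.079 for Psmb1. With totals without hormone genes, log2 fold changes were 0.044 for Psme3 and 0.012 for Psme4. With quantile normalization, log2 fold changes were 0.022 for Psmb5, 0.057 for Psme3, 0.018 for Psme4 and 0.015 for Psmc1. Scaled on the proteasome genes, log2 fold changes were 0.044 for Psmb5, 0.034 for Psmb6, 0.028 for Psmb7, 0.11 for Psme3, 0.076 for Psme4, 0.011 for Psmd6, 0.0042 for Psmb3, 0.043 for Psmc1 and 0.031 for Psmb1. Psme3 was between -0.061 and 0.051 without a library, above 0 without control replicate 1 (0.031) or bKO replicate 1 (0.051). The ratios of catalytic subunits kept their sign without each library and with a pseudocount of 1. Depth limits Psmg3, Psmg4 and Psmb9, with 60 to 217 reads per library. The same holds for Psmd10, with 153 to 211, Psmb8, with 160 to 284, and Psmc3ip, with 21 to 38.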
